A study of Mus musculus with 18 samples.

Results

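The nuclear-encoded genes of the respiratory chain and of ATP synthase were followed across mouse left ventricles that differed in age, Sesn2 genotype and surgery. Genes were taken by name: symbols that start with Nduf, Uqcr, Atp5, Cox4, Cox5, Cox6, Cox7 or Cox8, with a level of at least 1 CPM (counts scaled to the size of the library) in at least 3 of the 18 libraries. Of 24421 symbols, 88 had such a name and 85 met the limit. By complex they were 43 genes of complex I, 8 of complex III, 18 of complex IV and 16 of ATP synthase. Just inside the limit lay Cox6b2, a subunit isoform of complex IV best known from testis, with a mean of 2.16 CPM over the libraries. Outside it lay Cox7b2 with at most 0.561 CPM, and Cox8c and Ndufs5 with 1 count each over all 18 libraries.

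Mitochondria make ATP by passing electrons from NADH and other donors through complexes I, III and IV, which pump protons across the inner membrane, and ATP synthase uses the returning protons to make ATP. Each of these complexes is built from subunits encoded in the nucleus together with a few encoded in mitochondrial DNA, and complex I in particular needs a set of assembly factors that are absent from the finished enzyme. Heart muscle is among the tissues richest in these complexes, and it uses muscle forms of several complex IV subunits. Sesn2 encodes sestrin 2, a protein made under stress that acts on the AMPK and mTORC1 pathways.

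The samples were frozen left ventricles of C57BL/6 mice in 6 groups of 3 hearts. Sesn2-KO mice, aged 3 to 4 months and lacking Sesn2, made up the Sesn2-KO IR and Sesn2-KO sham groups. Wild-type (WT) mice aged 24 to 26 months made up the aged WT IR and aged WT sham groups, and WT mice aged 3 to 4 months the young WT IR and young WT sham groups. In IR (ischaemia and reperfusion) hearts the left anterior descending artery was blocked for 45 min, and the heart was collected after 24 h of reperfusion; sham hearts had the chest opened without blocking the artery. The knockout came from the submitters' own colony, aged WT mice from Charles River and young WT mice from Jackson, so supplier cannot be told apart from age or genotype. The whole ventricle was taken, injured and uninjured wall together, and in such bulk tissue fewer cells of a type and less RNA per cell cannot be told apart.

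Each library held 9404531 to 14458047 gene counts, of which the 85 genes took 4.07% to 6.31%. Sesn2 followed the labels, at 0.0708 to 0.322 CPM in Sesn2-KO IR hearts and 0 to 0.371 CPM in Sesn2-KO sham hearts, against 2.56 to 5.96 CPM in the 12 WT hearts. The 8 cardiomyocyte markers were all detected and summed to 24900 to 40401 CPM per library. In 6 libraries, 1 of each group, long transcripts were raised and short ones lowered against the group mean: Sesn2-KO IR 3, Sesn2-KO sham 3, aged WT IR 3, aged WT sham 1, young WT IR 3 and young WT sham 1. There, Spearman's correlation across 13761 genes between a gene's deviation from its group mean and the length of its longest transcript was 0.31 to 0.48, against -0.43 to -0.02 in the other 12 libraries. The trend bears on these genes because they are short, with a median longest transcript of 1082 bases, against 2700 bases over all symbols with a length.

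Promoters were read for 71 of the 85 genes, as the 250 bases before to the 50 bases after each RefSeq start on GRCm38.p6. Short motifs known from mitochondrial or core promoters were searched on both strands. The core site of the factor NRF1, a regulator of respiratory chain genes, is a palindrome of 10 bases, shown in capitals in the Ndufa11, Cox6a1 and Atp5g2 promoters below. It was present in 9.86% of these genes (7 of 71), against 1.07% of all 27025 genes with a window. The ETS core bound by GABPA, CCGGAAG, was present in 21.1% against 9.93%. The YY1 core AAGATGGC was present in 15.5% against 3.19%, the oestrogen-related receptor site AAGGTCA in 8.45% against 5.38%, the cAMP response element TGACGTCA in 5.63% against 2.03%, and TATAAA in 8.45% against 15.7%. The 7 genes with the NRF1 core were Ndufa11, Ndufaf4 and Ndufaf5 of complex I, Uqcrc1 of complex III, Cox6a1 of complex IV, and Atp5g2 and Atp5k of ATP synthase. A match is a description of letters and says nothing of binding in these hearts.

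Below are the 250 bases before the start of Ndufaf1, shown because its transcript was the 1 called by edgeR's test, and those of the first gene by name in complexes I and IV and ATP synthase with the NRF1 core before its start. The NRF1 match of Uqcrc1 lay after its start, so no complex III promoter is given. Sequences read 5′ to 3′ on the gene's strand, with motif matches in capitals. The Ndufaf1 window is chr2:119662835-119663084 (minus strand) and holds the ETS core 18 bases before the start. The Ndufa11 window is chr17:56717512-56717761 (plus strand), with the cAMP response element 158 and the NRF1 core 60 bases before the start. The Cox6a1 window is chr5:115348959-115349208 (minus strand), with the NRF1 core at 162 and the ETS core, read from the opposite strand as CTTCCGG, at 16 bases before the start. The Atp5g2 window is chr15:102671048-102671297 (minus strand), with the NRF1 core 42 bases before the start.
Ndufaf1: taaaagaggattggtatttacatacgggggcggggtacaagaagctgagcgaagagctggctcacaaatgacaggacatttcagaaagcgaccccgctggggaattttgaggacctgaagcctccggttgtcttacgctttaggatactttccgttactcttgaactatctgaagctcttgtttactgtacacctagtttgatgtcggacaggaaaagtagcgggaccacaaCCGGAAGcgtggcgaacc
Ndufa11: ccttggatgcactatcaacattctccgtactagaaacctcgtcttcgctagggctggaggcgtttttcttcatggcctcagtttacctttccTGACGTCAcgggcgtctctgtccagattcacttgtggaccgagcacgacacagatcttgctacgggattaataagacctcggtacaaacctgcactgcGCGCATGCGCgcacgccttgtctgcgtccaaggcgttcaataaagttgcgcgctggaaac
Cox6a1: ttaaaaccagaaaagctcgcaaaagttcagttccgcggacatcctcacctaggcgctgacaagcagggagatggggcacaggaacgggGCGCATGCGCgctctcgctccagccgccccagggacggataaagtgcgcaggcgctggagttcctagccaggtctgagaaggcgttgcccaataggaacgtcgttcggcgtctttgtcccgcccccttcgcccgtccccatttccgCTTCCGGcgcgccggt
Atp5g2: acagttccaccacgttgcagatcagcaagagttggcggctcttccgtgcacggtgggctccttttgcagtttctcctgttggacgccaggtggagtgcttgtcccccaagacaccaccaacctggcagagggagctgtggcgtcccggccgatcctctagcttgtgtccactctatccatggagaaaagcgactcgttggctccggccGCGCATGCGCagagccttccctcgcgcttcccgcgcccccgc

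Levels differed widely between genes of the same complex. Per kb of longest transcript, the head subunits of ATP synthase, Atp5b and Atp5a1, averaged 2363 and 1461 CPM per kb over the 18 libraries, and Atp5s, coupling factor B, was lowest at 22.2 CPM per kb. In complex IV, Cox4i1 averaged 2013 and Cox6a2, the muscle form of subunit 6a, 1677 CPM per kb, whereas Cox6b2 was at 3.68 CPM per kb. In complex III the hinge protein Uqcrh was at 951, Uqcr11 at 947 and Uqcrq, the lowest, at 406 CPM per kb. In complex I the accessory subunits Ndufb9 and Ndufb10 led with 1120 and 774 CPM per kb. Its 7 core subunits, which carry the electron path, lay at 354 to 766 CPM per kb and its 8 assembly factors at 15.9 to 51.9 CPM per kb, so the ranges of core subunits and assembly factors did not overlap. These levels depend on the transcript model: on the APPRIS principal transcript, Ndufaf2 stood at 56.5 instead of 15.9 CPM per kb.

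The summed level of all 85 genes varied more between hearts of 1 group than between groups. It was 61582, 46508 and 38895 CPM in Sesn2-KO IR hearts 1 to 3, against 55230, 58232 and 46900 CPM in Sesn2-KO sham hearts. It was 54713, 65959 and 47117 CPM in aged WT IR hearts, against 48050, 55442 and 55082 CPM in aged WT sham hearts. It was 61207, 49698 and 45096 CPM in young WT IR hearts, against 47486, 63535 and 56109 CPM in young WT sham hearts. Every IR group overlapped its sham group, and the lowest and the highest of the 9 IR hearts, Sesn2-KO IR 3 and aged WT IR 2, lay beyond all sham hearts.

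IR and sham groups overlapped in each complex too, and Sesn2-KO IR 3 was the lowest library of each. The highest was aged WT IR 2, except in complex I, where young WT sham 2 (22073 CPM) lay above aged WT IR 2 (21972 CPM). Complex I summed to 16524 ± 4009 CPM in Sesn2-KO IR and 18152 ± 2248 CPM in Sesn2-KO sham hearts, 18815 ± 3125 CPM in aged WT IR and 18006 ± 1392 CPM in aged WT sham hearts, and 17506 ± 3096 CPM in young WT IR and 19111 ± 2938 CPM in young WT sham hearts (SD, n = 3 in each group). Complex III summed to 6067 to 7057 CPM over the group means and complex IV to 9322 to 10452 CPM. ATP synthase summed to 16932 ± 3690 CPM in Sesn2-KO IR hearts, the lowest group mean, and to 19606 ± 3286 CPM in aged WT IR hearts, the highest. For every complex the highest library was 1.69 to 1.74 times the lowest. The division among complexes was steadier: complex I held 32.9% to 34.7% of the CPM of the 85 genes in any library, complex III 12.2% to 12.9%, complex IV 17.04% to 19.7% and ATP synthase 34.0% to 36.1%.

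**Figure D1:**
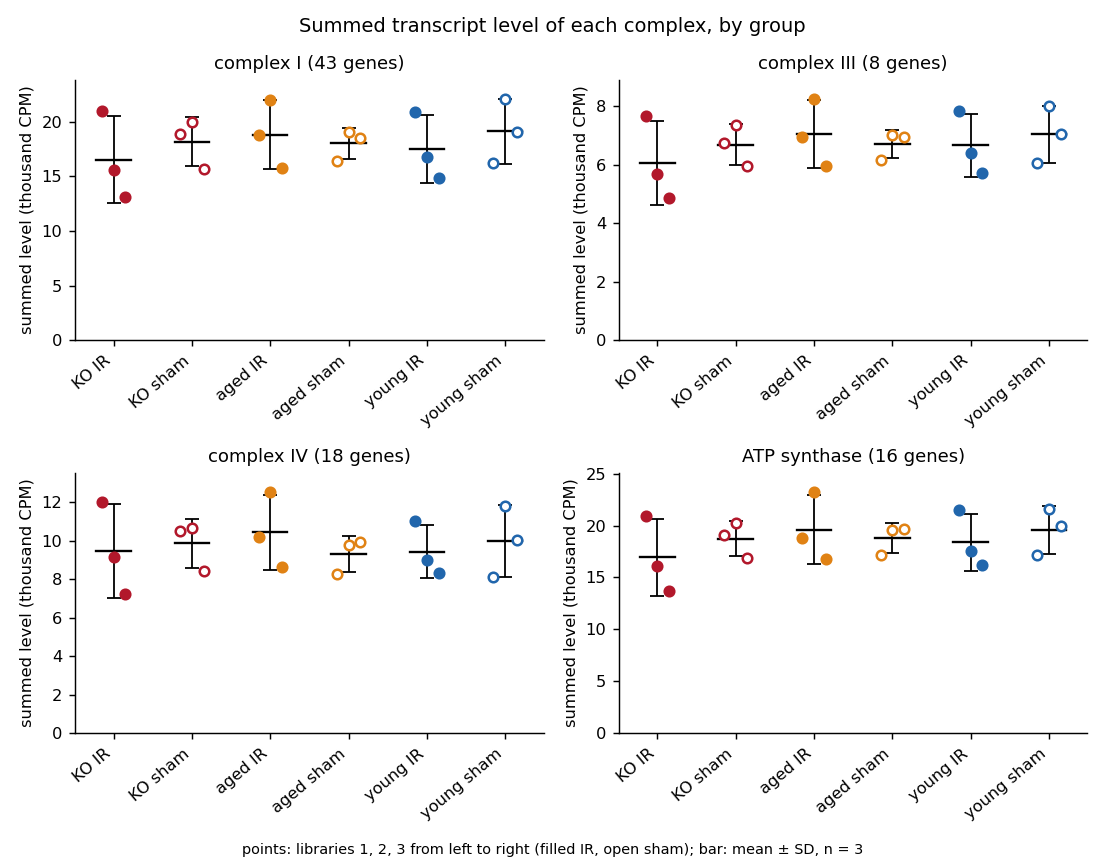
Summed CPM (vertical axis, from 0) of the genes of complex I, complex III, complex IV and ATP synthase in each of 18 libraries, by group, with mean and SD of 3 hearts. Groups overlap in every panel, and the highest library is 1.69 to 1.74 times the lowest.

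The genes moved between hearts as a block. Against the mean of its own group, the median gene of the set was 0.38 higher on the log2 scale in Sesn2-KO IR 1, with 84 of 85 genes above the mean. It was at -0.34 in Sesn2-KO IR 3, with 81 of 85 genes below. In young WT IR hearts, 84 genes lay above the group mean in heart 1 (median 0.26) and 84 below it in heart 3 (median -0.22). In 12 of the 18 libraries at least 76 of the 85 genes lay on one side of the group mean. Over all genes the same medians were -0.02 to 0.01. Within a library the medians of the 4 complexes differed from each other by 0.02 to 0.07, so the 4 complexes shared the shift. Roles within a complex were not compared in this way.

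**Figure D2:**
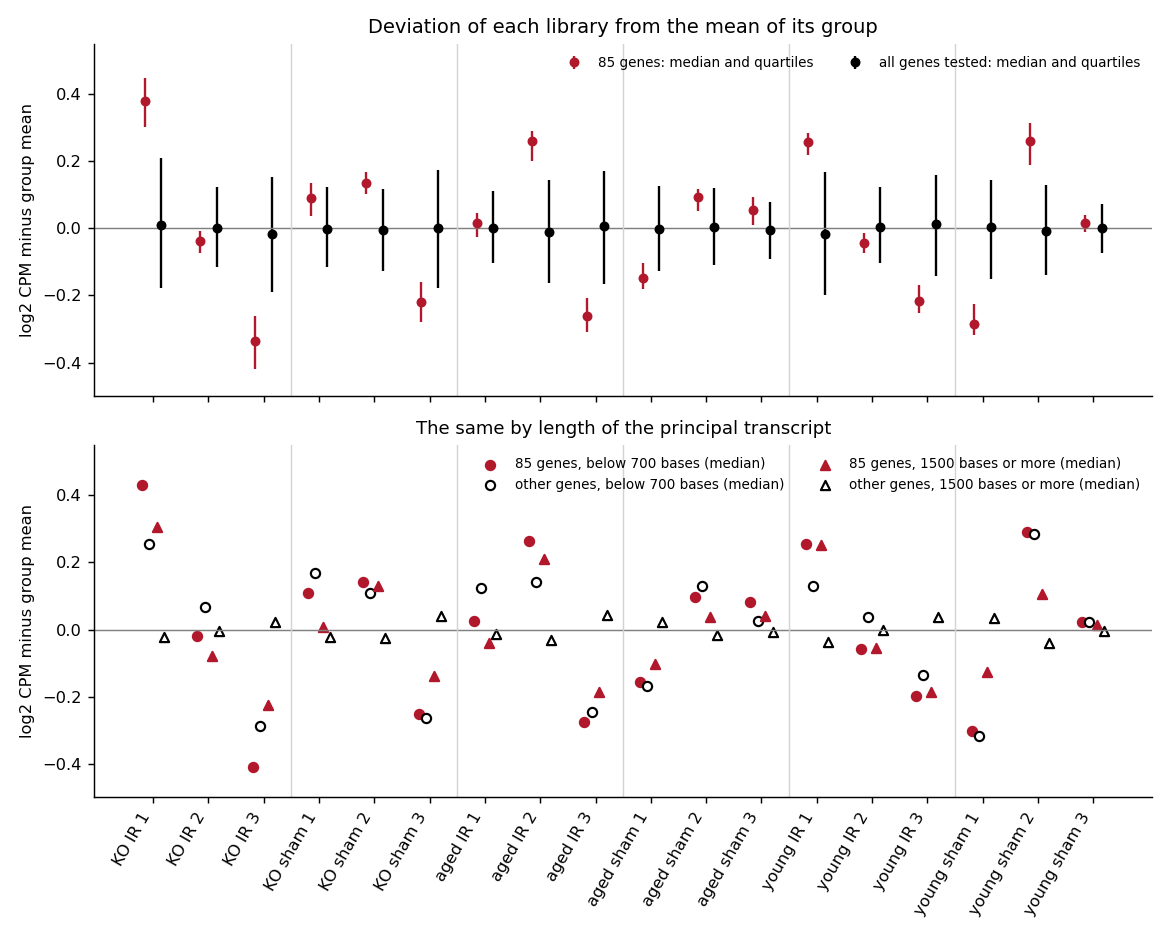
Deviation of log2 CPM from the group mean (vertical axis) in each library, shown as median and quartiles for the 85 genes and for all genes tested (top) and as medians by length of the principal transcript (bottom). The medians of the 85 genes run from -0.34 to 0.38, those of all genes from -0.02 to 0.01.

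The short genes of the set moved close to other short transcripts in sham hearts and differed from them more, in both directions, in most IR hearts. Aged WT IR 3 was an exception, with medians of -0.27 for short genes of the set and -0.25 for other short genes. In young WT sham 1, the 31 genes of the set with a principal transcript under 700 bases had a median deviation of -0.30 and the 192 other genes of that length -0.32; in Sesn2-KO sham 3 the values were -0.25 and -0.26, and in Sesn2-KO sham 1, the widest gap among sham hearts, 0.11 and 0.17. In Sesn2-KO IR 1 they were 0.43 for the set and 0.25 for other genes, and in Sesn2-KO IR 3 -0.41 and -0.29. The set was also lower than the other short genes in hearts with smaller shifts, at -0.02 and 0.07 in Sesn2-KO IR 2, 0.03 and 0.12 in aged WT IR 1, and -0.06 and 0.04 in young WT IR 2. Genes of the set with long transcripts moved as well, unlike other long transcripts: for principal transcripts of at least 1500 bases, the 20 genes of the set were at 0.31 in Sesn2-KO IR 1 and 0.25 in young WT IR 1, while the 11314 other genes were at -0.02 and -0.04. Sham hearts showed this too: the set was at -0.13 in young WT sham 1, -0.14 in Sesn2-KO sham 3 and 0.13 in Sesn2-KO sham 2. The other long genes were at 0.04, 0.04 and -0.02 in the same order. In each IR group the heart with the highest level of the set also had the highest cardiomyocyte marker sum and the lowest neutrophil marker sum. Cardiomyocyte markers summed to 31483 CPM in Sesn2-KO IR 1 against 25523 and 24900 CPM in the other Sesn2-KO IR hearts, to 36804 CPM in aged WT IR 2 against 29735 and 30026 CPM, and to 35754 CPM in young WT IR 1 against 30213 and 29422 CPM. Neutrophil markers summed to 84.1 CPM in Sesn2-KO IR 1 against 147 and 93.0 CPM, to 93.0 CPM in aged WT IR 2 against 160 and 120 CPM, and to 59.0 CPM in young WT IR 1 against 62.1 and 115 CPM. Sham groups did not all share this. Sesn2-KO sham 2, highest in the set, also had the highest cardiomyocyte sum (32512 CPM) and the lowest neutrophil sum (35.3 CPM). Young WT sham 2, highest in the set, had the lowest cardiomyocyte sum (37410 CPM) and the highest neutrophil sum (7.11 CPM). Aged WT sham 2, also highest in the set, had the middle cardiomyocyte sum (39388 CPM) and the highest neutrophil sum (18.5 CPM). Fibroblast markers were highest in Sesn2-KO IR 1 (3649 CPM against 2140 and 2630) and aged WT IR 2 (2834 against 2686 and 1995). They were lowest in young WT IR 1 (1858 CPM against 3660 and 2858). Macrophage markers were highest in Sesn2-KO IR 1 (827 CPM against 735 and 591) but lowest in aged WT IR 2 (601) and young WT IR 1 (480). The part of cell makeup and of transcript length in the shift was not tested.

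The first comparison asked whether transcripts of the complexes differed 24 h after IR. In young WT hearts, 0 of 85 genes were called by edgeR's quasi-likelihood test at an adjusted p below 0.05, where 6.07% of all 13859 genes were called. At an unadjusted p below 0.05 there was 1 gene of the set, against 2904 of all 13859 genes. DESeq2 called 1 (9.52% of all genes), Ndufaf1, and limma voom with quality weights called 2 (19%), Atp5s and Cox7a2l, all lower after IR. The fold changes leaned one way without passing the test: 83 of 85 were below 0, with a median of -0.10 on the log2 scale, against 0.01 over all genes. By complex the medians were -0.12 for complex I, -0.07 for complex III, -0.08 for complex IV and -0.09 for ATP synthase. Leaving out young WT sham 2 turned the median over the set to 0.03, and leaving out young WT IR 1 took it to -0.24.

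In aged WT hearts, 0 of 85 genes were called by edgeR, where 7.61% of all genes were called. An unadjusted p below 0.05 was reached by 1 gene of the set and by 3282 of all 13859 genes. DESeq2 called 1 (11.3% of all genes), Ndufaf1, lower after IR. Limma voom called 3 (24.8%): Cox6a1, the widely expressed form of subunit 6a of complex IV, higher, and Ndufaf1 and Ndufs1 lower. Here 67 of 85 fold changes were above 0, with a median of 0.14 against 0.00 over all genes, and medians of 0.11 for complex I, 0.16 for complex III, 0.16 for complex IV and 0.11 for ATP synthase. Without aged WT IR 2 the median over the set was 0.00, and with each library's length slope as a covariate it was -0.16.

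In Sesn2-KO hearts edgeR called 0 of 85 genes, and 0% of all genes. The 4 genes Ndufa10, Atp5sl, Ndufs1 and Uqcrc2 of the set had unadjusted p-values below 0.05, as had 2037 of all 13859 genes. DESeq2 called 0 genes of the set (1.1% of all genes) and limma voom 2 (8.91%), Atp5s and Ndufa10, both lower after IR. Of the 85 fold changes 73 were below 0, with a median of -0.07 against 0.00 over all genes. The medians were -0.08 for complexes I and III, -0.05 for complex IV and -0.11 for ATP synthase. Without Sesn2-KO IR 1 the median over the set was -0.30 and without Sesn2-KO IR 3 it was 0.06.

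Markers of cell types moved with surgery in the same hearts. Cardiomyocyte markers summed to 24900 to 31483 CPM in Sesn2-KO IR hearts, against 31776 to 32512 CPM in Sesn2-KO sham hearts. They summed to 29735 to 36804 CPM in aged WT IR hearts, against 38020 to 40401 CPM in aged WT sham hearts, and to 29422 to 35754 CPM in young WT IR hearts, against 37410 to 39891 CPM in young WT sham hearts. The sums did not overlap, but the markers did not move alike: Myh6, the one with the highest CPM, stood at -0.46 ± 0.16 in Sesn2-KO, -0.59 ± 0.16 in aged WT and -0.44 ± 0.16 in young WT hearts (log2 fold change, IR against sham), and Tnnt2 at -0.05 ± 0.14, 0.14 ± 0.14 and 0.03 ± 0.14. EdgeR called 0 of 8 cardiomyocyte markers in Sesn2-KO hearts, Myh6 and Mybpc3 as lower in aged WT hearts, and Mybpc3 as lower in young WT hearts. All 5 neutrophil markers were called as higher in aged WT and in young WT hearts and 0 in Sesn2-KO hearts. Of 6 fibroblast markers 3 were called as higher in aged WT and 3 in young WT hearts, with median log2 fold changes of 0.33 in Sesn2-KO, 0.75 in aged WT and 0.91 in young WT hearts, and 1 of 6 macrophage markers was called as higher in each WT background. The part of these markers in the results on the 85 genes was not tested.

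**Figure D3:**
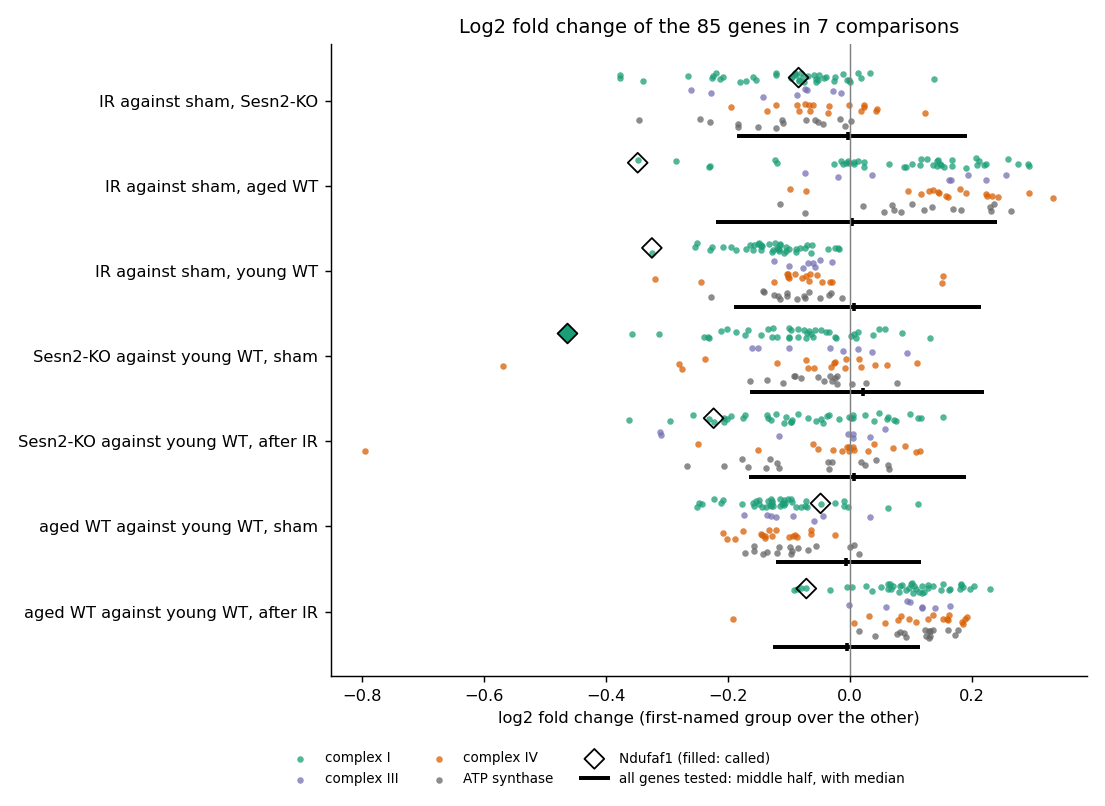
Log2 fold changes (horizontal axis, first-named group over the other) of the 85 genes in the 7 comparisons of 2 groups, coloured by complex; each point is a gene, diamonds mark Ndufaf1 (filled where called) and bars give the quartiles of all genes tested. Medians of the complexes lie between -0.13 and 0.16, and Ndufaf1 at -0.46 in Sesn2-KO against young WT sham hearts is the 1 gene called.

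The next comparisons asked how genotype and age bear on the genes, with the same young WT hearts set against both. Between Sesn2-KO sham and young WT sham hearts 1 of 85 genes was called, Ndufaf1, lower in Sesn2-KO, where 5.11% of all genes were called in either direction and 1.79% as lower. After IR, Sesn2-KO against young WT gave 0 calls in the set by edgeR, DESeq2 and limma voom (0.433%, 1.86% and 1.64% of all genes). At an unadjusted p below 0.05 lay 3 genes of the set and 1758 of all 13859 genes. Aged WT sham against young WT sham hearts gave 0 calls by the same 3 tools (0.152%, 0.318% and 1.33% of all genes). An unadjusted p below 0.05 was reached by 0 genes of the set and by 615 of all genes. Aged WT IR against young WT IR hearts gave 0 calls by each tool (0.0649%, 0.238% and 0.137%). Again 0 genes of the set had an unadjusted p below 0.05, against 553 of all genes.

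Median log2 fold changes over the set were -0.06 for Sesn2-KO sham against young WT sham hearts (65 of 85 below 0), and -0.12 for aged WT sham against young WT sham hearts (80 of 85 below 0). After IR they were -0.04 for Sesn2-KO against young WT (54 of 85 below 0) and 0.11 for aged WT against young WT (77 of 85 above 0). Over all genes the medians were -0.01 to 0.02. Each of these 4 medians took the opposite sign when some library was left out, with ranges of -0.18 to 0.08, -0.25 to 0.03, -0.25 to 0.10 and -0.02 to 0.26 in the same order. The 95% confidence interval of the fold change lay within ±1 on the log2 scale for 84 of 85 genes in each of the 7 comparisons of 2 groups, the exception being Cox6b2. Over all 13859 genes it did so for 10136 to 11332 genes by comparison.

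Ndufaf1, which chaperones the membrane arm of complex I during assembly, was the 1 gene of the set called by edgeR. It lies at chr2:119655446-119662827 on GRCm38, minus strand, and is protein-coding. It had 61.0, 71.8 and 70.2 CPM in Sesn2-KO sham hearts, against 90.2, 102 and 87.9 CPM in young WT sham hearts. All 3 Sesn2-KO sham hearts lay below all 3 young WT sham hearts. The log2 fold change was -0.46 ± 0.11 (SE; 95% interval -0.70 to -0.23; edgeR adjusted p = 0.0238). Beside this difference, Myh6 stood at -0.50 ± 0.16 and Tnnt2 at 0.01 ± 0.14 on the log2 scale, and edgeR called 0 of the 8 cardiomyocyte markers. These markers summed to 31776 to 32512 CPM in Sesn2-KO sham hearts, against 37410 to 39891 CPM in young WT sham hearts. Fibroblast markers summed to 2150 to 2719 CPM against 1495 to 2108 CPM, and neutrophil markers to 35.3 to 82.4 CPM against 4.99 to 7.11 CPM. Endothelial markers summed to 789 to 1077 CPM against 1199 to 1274 CPM, and macrophage markers to 644 to 688 CPM against 354 to 587 CPM. Smooth muscle and pericyte markers summed to 319 to 423 CPM against 433 to 541 CPM. None of these sums overlapped. EdgeR called all 5 neutrophil markers, the macrophage marker Cd68 and the lymphocyte marker Cd3g as higher, and the endothelial marker Kdr as lower. The part of these markers in the Ndufaf1 difference was not tested. DESeq2 and limma voom also called Ndufaf1, with adjusted p-values of 0.00123 and 0.00553. The edgeR call was lost when Sesn2-KO sham 1 (adjusted p = 0.113), young WT sham 1 (0.0534), young WT sham 2 (0.0915) or young WT sham 3 (0.0505) was left out, when the 6 length-tilted libraries were left out (0.0827), and in a fit of these 2 groups alone (0.0582, with 4.62% of all genes called); fold changes in the last 2 were -0.53 and -0.49.

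Ndufaf1 was also low after IR in WT hearts, without passing the test. It had 72.8, 69.4 and 70.5 CPM in aged WT IR hearts, against 94.3, 89.8 and 86.7 CPM in aged WT sham hearts, with no overlap (log2 fold change -0.35 ± 0.11, edgeR adjusted p = 0.0644). It had 80.0, 80.9 and 62.7 CPM in young WT IR hearts, against the young WT sham values above, again with no overlap (-0.33 ± 0.11, adjusted p = 0.0945). In Sesn2-KO IR hearts it had 70.0, 58.9 and 62.7 CPM, which overlapped the Sesn2-KO sham hearts (-0.08 ± 0.11, adjusted p = 0.770). The IR response in Sesn2-KO minus that in young WT was 0.24 ± 0.16, not called (adjusted p = 1.000).

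**Figure D4:**
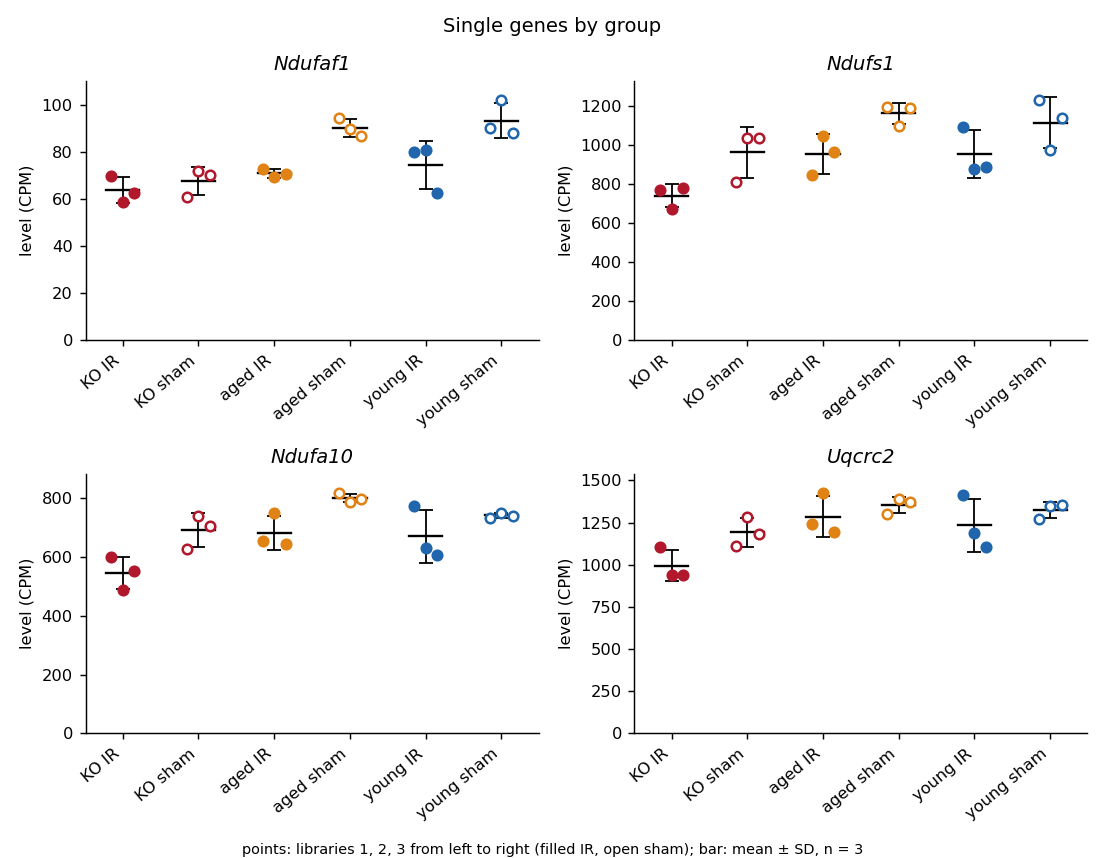
CPM (vertical axis, from 0) of Ndufaf1, Ndufs1, Ndufa10 and Uqcrc2 in each heart by group, with mean and SD of 3 hearts. Ndufaf1 is at 61.0 to 71.8 CPM in Sesn2-KO sham hearts and 87.9 to 102 CPM in young WT sham hearts; the other 3 genes have their lowest values in Sesn2-KO IR hearts.

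Among the assembly factors of complex I, Ndufaf1 was the 1 called by edgeR and limma voom called Ndufaf6 as well. The 8 assembly factors had a median log2 fold change of -0.24 between Sesn2-KO sham and young WT sham hearts, against -0.13 for the 7 core and -0.06 for the 28 accessory subunits. Ndufaf6, which also takes part in the early assembly steps, had 26.5, 26.4 and 22.9 CPM in Sesn2-KO sham hearts, against 27.3, 37.2 and 32.6 CPM in young WT sham hearts. These groups did not overlap, and the fold change of -0.36 ± 0.14 was not called by edgeR (adjusted p = 0.158). Limma voom called 15.6% of all genes in this comparison, and DESeq2, which called Ndufaf1 alone of the set, 8.03%. Atp5sl, named after an ATP synthase factor but now known as the complex I assembly protein DMAC2, had 43.0, 39.8 and 44.3 CPM in Sesn2-KO IR hearts, against 51.5, 53.1 and 60.6 CPM in Sesn2-KO sham hearts. Its groups did not overlap either (-0.38 ± 0.14, edgeR adjusted p = 0.231).

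Outside the name rule, Foxred1, another complex I assembly factor, was called in Sesn2-KO hearts after either surgery. Foxred1 had 81.6, 67.7 and 73.2 CPM in Sesn2-KO IR hearts, against 140, 112 and 98.6 CPM in young WT IR hearts (log2 fold change -0.65 ± 0.13, edgeR adjusted p = 0.0365). Foxred1 had 83.7, 108 and 101 CPM in Sesn2-KO sham hearts, against 142, 130 and 136 CPM in young WT sham hearts (-0.48 ± 0.13, adjusted p = 0.0399). The groups did not overlap in either comparison. The call in sham hearts was lost whichever of the 6 libraries was left out (adjusted p 0.0505 to 0.167), and that after IR without young WT IR 1 or 2 or Sesn2-KO IR 2 or 3 (0.0691 to 0.201). Both were lost without the 6 tilted libraries (0.167 in sham, 0.0719 after IR) and in a fit of the compared groups alone (0.0605 and 0.431), and the call in sham hearts with no filter on low counts (0.0527). Foxred1 was the 1 call among the 8 of 10 listed complex I assembly genes outside the rule that were tested, where edgeR called 5.11% of all genes in sham hearts and 0.433% after IR. The median fold change of those 8 genes was -0.20 in sham hearts and -0.24 after IR for Sesn2-KO against young WT.

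Among the subunits that carry or support electron transfer, 3 genes named for a small p had their lowest levels in Sesn2-KO IR hearts. Ndufs1, the largest iron-sulfur subunit of complex I, had 771, 673 and 778 CPM in Sesn2-KO IR hearts, against 812, 1037 and 1035 CPM in Sesn2-KO sham hearts and 1094, 876 and 885 CPM in young WT IR hearts. Ndufa10, an accessory subunit of its membrane arm, had 598, 488 and 552 CPM in Sesn2-KO IR hearts, against 628, 739 and 705 CPM in Sesn2-KO sham hearts and 772, 631 and 606 CPM in young WT IR hearts. Uqcrc2, a core protein of complex III, had 1102, 940 and 941 CPM in Sesn2-KO IR hearts, against 1109, 1283 and 1184 CPM in Sesn2-KO sham hearts and 1411, 1187 and 1107 CPM in young WT IR hearts. All 3 genes were lower in every Sesn2-KO IR heart than in any heart of either group it was set against. They were picked for a small p in at least 1 of these comparisons, which favours such a separation. An unadjusted p below 0.05 was reached by 4 genes of the set and 2037 of all 13859 against Sesn2-KO sham hearts. Against young WT IR hearts it was reached by 3 and 1758. How many other genes separated in this way was not counted. The sum of the atrial markers differed in both comparisons. It was 860 to 1691 CPM in Sesn2-KO IR hearts, against 228 to 731 CPM in Sesn2-KO sham hearts and 148 to 702 CPM in young WT IR hearts, without overlap. EdgeR called 0 of the 4 atrial markers tested in either comparison. The part of these markers in the result was not tested.

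None of these differences passed the test across all genes. Against Sesn2-KO sham hearts the log2 fold changes were -0.38 ± 0.14 for Ndufs1 (edgeR adjusted p = 0.231), -0.34 ± 0.12 for Ndufa10 (0.219) and -0.26 ± 0.12 for Uqcrc2 (0.314). Against young WT IR hearts they were -0.36 ± 0.14 for Ndufs1 (0.275), -0.29 ± 0.12 for Ndufa10 (0.298) and -0.31 ± 0.12 for Uqcrc2 (0.275); the Sesn2-KO IR hearts are the same in both. Uqcrc1, the other core protein of complex III, stood at -0.31 ± 0.18 against young WT IR (0.490), and Uqcrfs1, its iron-sulfur catalytic subunit, at -0.12 ± 0.17 (0.826). The core and accessory subunits of complex I had medians of -0.22 and -0.06 in Sesn2-KO IR against sham hearts. In aged WT IR against sham hearts Ndufs1 stood at -0.29 ± 0.14 (0.215), while the core subunits had a median of -0.01 and the accessory subunits of 0.15. The small accessory subunits of complex III Uqcrq and Uqcr11 stood at 0.26 ± 0.23 (0.544) and 0.22 ± 0.22 (0.588) in that comparison.

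For ATP synthase, 0 of 16 genes were called in any comparison by edgeR, where 0% to 7.61% of all genes were called by comparison. Over so few genes, a count of 0 is near that share and is not a result about the complex. Atp5a1, the alpha subunit of its head, had 3779, 3043 and 2899 CPM in Sesn2-KO IR hearts, against 3653, 4139 and 3733 CPM in Sesn2-KO sham hearts and 4514, 3663 and 3519 CPM in young WT IR hearts, and the groups overlapped (-0.25 ± 0.14, adjusted p = 0.414, and -0.27 ± 0.14, adjusted p = 0.431). Atp5b, the catalytic beta subunit, had 4987, 3856 and 3395 CPM in Sesn2-KO IR hearts, against 4572, 5037 and 4286 CPM in Sesn2-KO sham hearts, with overlap (-0.18 ± 0.16, adjusted p = 0.626). The head and central stalk genes had medians of -0.18, 0.06 and -0.05 for IR against sham in Sesn2-KO, aged WT and young WT hearts. Atp5s had 34.8, 26.1 and 25.5 CPM in Sesn2-KO IR hearts, against 38.1, 39.7 and 31.8 CPM in Sesn2-KO sham hearts, with overlap (-0.35 ± 0.17, adjusted p = 0.353).

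The 3 Atp5g genes encode the same mature c subunit of the rotating ring and differ in their targeting sequences. Atp5g3 led at 1392 CPM per kb, with Atp5g1 and Atp5g2 both at 199 CPM per kb. This equality rests on a longest transcript of 4715 bases for Atp5g1, against 753 bases for Atp5g2. Without division by length, mean levels on raw library totals were 1197 CPM for Atp5g3, 937 CPM for Atp5g1 and 149 CPM for Atp5g2. Atp5g2 was the steadiest, with 134, 136 and 126 CPM in Sesn2-KO IR hearts, against 160, 154 and 150 CPM in Sesn2-KO sham hearts, without overlap. The fold change of -0.23 ± 0.11 was not called (edgeR adjusted p = 0.344). Atp5g3 had 1591, 1094 and 801 CPM in Sesn2-KO IR hearts, against 1238, 1315 and 974 CPM in Sesn2-KO sham hearts, and Atp5g1 1022, 794 and 666 CPM against 919, 947 and 833 CPM. Both spanned wider ranges within the group than between groups, at -0.02 ± 0.24 for Atp5g3 and -0.12 ± 0.18 for Atp5g1. In aged WT IR against sham hearts the membrane subunits Atp5l and Atp5j2 stood at 0.24 ± 0.20 (0.515) and 0.23 ± 0.22 (0.567).

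Complex IV, too, gave 0 edgeR calls among 18 genes in any comparison, where 0% to 7.61% of all genes were called, so the same limit holds. Cox7a2l, which takes part in joining complexes III and IV into supercomplexes, had 328, 292 and 242 CPM in young WT IR hearts, against 293, 416 and 366 CPM in young WT sham hearts, with overlap (-0.32 ± 0.18, adjusted p = 0.333). Cox6a1 had 154, 141 and 113 CPM in aged WT IR hearts, against 106, 118 and 99.99 CPM in aged WT sham hearts, also with overlap (0.33 ± 0.16, adjusted p = 0.216). Cox6b2 had 2.31, 1.05 and 1.42 CPM in Sesn2-KO IR hearts, against 4.69, 2.32 and 1.13 CPM in young WT IR hearts. At this level its fold change was the least certain of the set (-0.80 ± 0.47, adjusted p = 0.498). Cox4i2, an isoform of subunit 4 known for its response to low oxygen, had 12.5, 13.7 and 9.41 CPM in Sesn2-KO sham hearts, against 14.6, 14.1 and 14.5 CPM in young WT sham hearts (-0.28 ± 0.23, adjusted p = 0.566). These groups did not overlap. Aged WT IR against sham hearts had Cox7c at 0.24 ± 0.19 (0.476).

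Isoform pairs were compared as ratios within a library, which do not depend on library size. The heart form Cox6a2 exceeded Cox6a1 by a mean log2 ratio of counts of 3.19. The ratio was 3.31, 2.98 and 2.95 in Sesn2-KO IR hearts, against 3.22, 3.49 and 3.21 in Sesn2-KO sham hearts. It was 2.80, 3.42 and 3.15 in aged WT IR hearts, against 3.22, 3.27 and 3.56 in aged WT sham hearts, and 3.26, 2.81 and 3.01 in young WT IR hearts, against 3.36, 3.15 and 3.29 in young WT sham hearts. IR and sham hearts overlapped in each background, and the mean difference was -0.23 in Sesn2-KO, -0.23 in aged WT and -0.24 in young WT. A two-sided exact permutation test of surgery labels within backgrounds (8000 relabellings, smallest possible p 0.00025) gave p = 0.0233 for the mean of -0.23, and 0.116 after Benjamini-Hochberg adjustment over the 5 pairs. Leaving out aged WT IR 2 made it -0.28, with an adjusted p of 0.0363.

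The other 4 ratios did not pass the same exact permutation test. Cox7a1, the muscle form of subunit 7a, stood at -0.04, -0.36 and 0.03 relative to Cox7a2 in Sesn2-KO IR hearts, against -0.22, 0.06 and 0.12 in Sesn2-KO sham hearts, as log2 ratios. Over the 3 backgrounds IR minus sham was -0.08 (adjusted p = 0.411). By genotype, this ratio ran between -0.36 and 0.12 in the 6 Sesn2-KO hearts and between 0.06 and 0.33 in the 12 WT hearts, a difference that was not tested. Cox8b, the muscle form of subunit 8, relative to Cox8a averaged 1.03 ± 0.28 in Sesn2-KO IR and 1.17 ± 0.07 in Sesn2-KO sham hearts, 1.25 ± 0.25 in aged WT IR and 1.23 ± 0.17 in aged WT sham hearts, and 1.19 ± 0.17 in young WT IR and 1.21 ± 0.10 in young WT sham hearts (SD, n = 3 in each group). Its difference was -0.05 (adjusted p = 0.572). Ndufa4l2, a paralogue of the complex IV subunit Ndufa4 that low oxygen raises in other cells, stood at a mean of -5.19 relative to Ndufa4, with a difference of -0.06 (adjusted p = 0.411). Cox4i2 stood at -6.92 relative to Cox4i1, with a difference of -0.08 (adjusted p = 0.437).

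**Figure D5:**
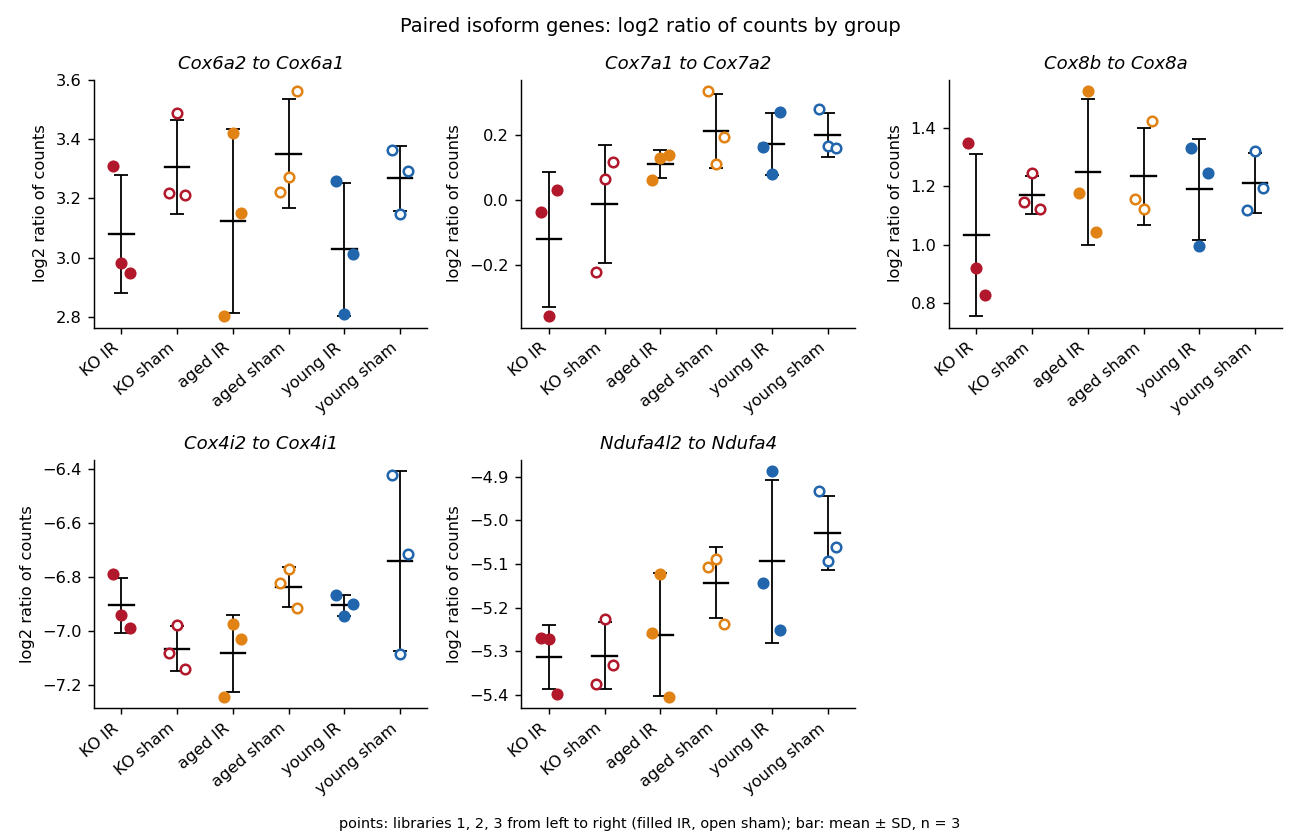
Log2 ratio of counts (vertical axis) of 5 isoform pairs in each heart by group, with mean and SD of 3 hearts. Cox6a2 over Cox6a1 averages 3.19 and Cox4i2 over Cox4i1 -6.92, and IR and sham hearts overlap in every background for Cox6a2 over Cox6a1.

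For the covariate and the offset, the length trend of a library was taken from deviations from the mean over all 18 libraries. Its slope can thus differ between groups. It was 0.142, -0.015 and 0.058 in aged WT sham hearts, against -0.113, -0.109 and 0.058 in aged WT IR hearts (log2 CPM per doubling of length). Trend and group therefore cannot be fully told apart. With each library's length slope as a covariate, more genes of the set were called, all of them lower. In young WT IR against sham hearts there were 10, where 14.6% of all genes were called. They were the assembly factors Ndufaf1 (-0.34), Ndufaf3 (-0.38) and Ndufaf6 (-0.33), the core subunits Ndufs7 (-0.33) and Ndufs8 (-0.35), the accessory subunits Ndufs4 (-0.36), Ndufa8 (-0.30), Ndufa11 (-0.26) and Ndufb10 (-0.31), and Cox7a2l (-0.43), with edgeR adjusted p-values of 0.00589 to 0.0499. In aged WT IR against sham hearts there were 5 (15.4% of all genes), all shared with those 10: Ndufaf1 (-0.39), Ndufaf3 (-0.42), Ndufaf6 (-0.30), Ndufs7 (-0.40) and Cox7a2l (-0.34), with adjusted p-values of 0.0243 to 0.0430. In Sesn2-KO sham against young WT sham hearts there were 9 (12.2%): Ndufaf1, Ndufaf2, Ndufaf3, Ndufaf6, Ndufs4, Ndufs7, Ndufs8, Ndufb5 and Ndufa4l2, at -0.28 to -0.50. With the covariate based on the principal transcript instead, the shares of all genes called were 14.6%, 14.9% and 11.8%. In each comparison the share of the set called was below that of all genes. Of all these calls, Ndufaf1 in Sesn2-KO sham hearts was the one edgeR made without the covariate. Taking the length trend out as an offset gave 1, 2 and 2 calls in these 3 comparisons (7.15%, 8.32% and 6.29% of all genes), and leaving out the 6 tilted libraries 0 in each (0.115%, 0.762% and 1.04%).

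The last comparison set the IR response in one background against that in another, and edgeR called 0 genes of the set in either. For aged WT minus young WT, 0% of all genes were called. An unadjusted p below 0.05 was reached by 0 of the 85 genes and by 152 of all 13859 genes. The fold changes had a median of 0.23, against 0.00 over all genes, with 81 of 85 above 0. This median depended on the handling of transcript length: it was 0.06 with the length slope as covariate, 0.05 with the slope on the principal transcript and 0.06 with the offset, and 0.31 without the 6 tilted libraries. Leaving out 1 library gave 0.08 (without young WT sham 2) to 0.36 (without young WT sham 1). The members with the smallest p of their complex included Ndufc2 at 0.29 ± 0.25, Cox7c at 0.31 ± 0.27 and Atp5j2 at 0.33 ± 0.31. For Sesn2-KO minus young WT, 0.0577% of all genes were called, and 0 of 85 had an unadjusted p below 0.05, against 769 of all genes. The median over the set was 0.02 (46 of 85 above 0), or -0.20 without Sesn2-KO IR 1 and 0.17 without Sesn2-KO IR 3. DESeq2 and limma voom called 0 genes of the set in both (0% and 0% of all genes for aged WT, 0.225% and 0.0866% for Sesn2-KO). For these differences of differences the 95% interval lay within ±1 for 75 genes and 84 genes of the set, and for 9668 and 9236 of all 13859 genes.

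Of the listed genes that work beside the set, edgeR called Foxred1 alone. The lists hold 5 to 20 tested genes, and edgeR called 6.07% of all genes after IR in young WT, 7.61% in aged WT and 0% in Sesn2-KO hearts, so a count near 0 is not a result about lists of this size. The 15 regulators of mitochondrial biogenesis had median log2 fold changes for IR against sham of -0.34 in Sesn2-KO, -0.25 in aged WT and -0.19 in young WT hearts. Among them Lrpprc, which stabilises mitochondrial mRNA, stood at -0.43 ± 0.14 in aged WT IR hearts (edgeR adjusted p = 0.0612), and Ppara, a regulator of fatty acid oxidation, at -0.78 ± 0.28 (0.0963). In Sesn2-KO IR hearts the coactivator Ppargc1a stood at -0.50 ± 0.21 (0.284) and the nuclear receptor Esrra at -0.34 ± 0.12 (0.233). Complex II and cytochrome c (6 genes) had medians of -0.21 in Sesn2-KO, -0.01 in aged WT and -0.12 in young WT hearts. Complex IV assembly (20 of 21 genes tested) was at -0.03, 0.06 and -0.10, complex III assembly (6 genes) at -0.12, -0.26 and -0.21, and ATP synthase assembly (5 of 6 tested) at -0.14, -0.03 and -0.23 in the same order. The complex III assembly gene Uqcc1 stood at -0.40 ± 0.13 in Sesn2-KO sham against young WT sham hearts (0.0881).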

How the data were processed

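Counts of fragments per gene were deposited by the authors as 18 tables, 1 per left ventricle, not normalized. Per the labels' protocols, RNA was purified on RNeasy columns and sequenced as paired-end reads of a stranded TruSeq mRNA library on a NextSeq 500. Per the submitters' processing notes, the tools were HTSeq, TopHat2, Bowtie2, SAMtools and FastQC with the mm10 build. Versions, strand option and annotation were not given in the sources used here. Without the strand option, overlapping antisense genes cannot be told apart. Levels of genes with near-identical copies, which may include Ndufs5 and Atp5g2, may be uncertain as well, but this was not checked. Lines for fragments in no gene (6.12% to 9.06% of counts) or in more than 1 gene (0.63% to 0.76%) stayed out of library sizes and tests. No pair of replicates was identical (chi-square over its degrees of freedom, 8.48 to 48.3).

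Groups came from sample titles. Nothing ties samples to litters, surgery days or batches; p-values therefore reflect only how far these samples spread. The test was edgeR 4.0.16 (R 4.3.3): filterByExpr (13859 genes), TMM, robust quasi-likelihood fit of 6 group means to 18 libraries and 9 contrasts, with Benjamini-Hochberg adjustment over all genes tested in a contrast and a call at an adjusted p below 0.05. All 85 genes were tested. CPM uses TMM-scaled library sizes, except in the rule that chose the genes, which uses raw totals; fold changes are log2 with SE. Isoform ratios are log2 of counts plus 0.5. The steps were tested on simulated data. Lengths and positions are from GENCODE M21 (GRCm38), promoters from RefSeq (GRCm38.p6); 14 genes had no promoter entry. Python 3.11.15, scipy 1.17.1 and pandas 2.3.3 were used for the rest.

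The genes, lists and rules were chosen with earlier results of these data known. Genes named were those called, the 2 with the smallest p per complex and comparison, the isoform pairs and Atp5g genes, the 2 highest and 1 lowest per kb of each complex, those beside the CPM limit, and up to 4 genes of each list with the smallest p; of the uncalled ones only part is printed. Alternatives were DESeq2 1.42.0 and its size factors, scaling by the upper quartile, dropping the filter on low counts, limma 3.58.1 voom, the compared groups alone, a replicate block, the length trend as covariate or offset, and libraries left out. The covariate on the principal transcript was added after seeing the data. No mitochondrially encoded transcript of the list was found under its symbol, and none was analysed here.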

Additional observations from a re-analysis of the deposited data

Results flagged for a closer look

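The log2 ratio of Cox4i2 to Cox4i1, the 2 isoforms of subunit 4 of complex IV, moved in opposite directions after IR in the 3 backgrounds. It was -6.79, -6.94 and -6.99 in Sesn2-KO IR hearts, against -7.08, -6.98 and -7.14 in Sesn2-KO sham hearts, a difference of 0.16. It was -7.24, -6.97 and -7.03 in aged WT IR hearts, against -6.82, -6.77 and -6.92 in aged WT sham hearts, a difference of -0.25, and these groups did not overlap. It was -6.87, -6.94 and -6.90 in young WT IR hearts, against -6.42, -7.08 and -6.72 in young WT sham hearts, a difference of -0.16, where the young WT sham hearts spread over both sides of the IR hearts. It drew attention because every IR heart lay above its sham mean in Sesn2-KO and below it in aged WT and in young WT. The difference between backgrounds was not tested. Cox4i2 is a low-level gene, at 8.57 to 17.04 CPM over all libraries.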

How the results depend on the processing

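Of 270 alternatives to the 14 main counts and ratios, 248 kept the direction and the side of the threshold. The median fold change over the set, which has no test, kept its sign in 13 to 16 of 17 alternatives in the 7 comparisons of 2 groups, in 23 of 23 for the IR response of aged WT minus young WT and in 17 of 23 for that of Sesn2-KO minus young WT. For IR against sham in young WT hearts, 0 calls became 1 with DESeq2, 2 with limma voom, 10 with the length slope on either transcript model and 1 with the length offset. In aged WT hearts, 0 became 1, 3, 5 and 2 in the same order. In Sesn2-KO hearts, 0 became 2 with limma voom. For Sesn2-KO sham against young WT sham hearts, 1 became 2 with limma voom, 9 with the slope on either model and 2 with the offset, and 0 with the compared groups alone or without the 6 tilted libraries; leaving out 1 library gave 0 to 1. The Cox6a2 to Cox6a1 ratio passed without aged WT IR 2 (-0.28), and was -0.28 to -0.18 with 1 library left out. The cause of these changes was not tested. Whether equal replicate numbers pair the samples is not stated in the labels. Of 45 same-numbered pairs of different groups, 16 had deviations correlated over 0.1 (-0.39 to 0.72). Sesn2-KO sham 3 and Sesn2-KO IR 3 stood at 0.72, and the differently numbered young WT IR 1 and aged WT IR 2 at 0.57. These correlations cannot decide whether the numbers pair the samples. With a replicate block the calls were 0 in 8 comparisons and 1 in Sesn2-KO sham against young WT sham hearts, and the Cox6a2 to Cox6a1 ratio was -0.23. With 3 hearts a group, single fold changes of the set had SE of 0.11 or more, and Ndufaf1 at -0.35 ± 0.11 after IR in aged WT hearts was not called, so changes of that size can be missed.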
